A study of Mus musculus with 8 samples.

Results

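The genes described here encode the subunits of voltage-gated sodium channels, voltage-gated calcium channels and potassium channels in mouse tumours. They are all genes whose symbol starts with Kcn or Cacn, or with Scn followed by a digit, and each was read from the probe set with the highest mean among those that carry that symbol alone. The rule gave 126 of the 22180 genes with a value, of which 11 are sodium channel genes, 25 calcium channel genes and 87 potassium channel genes. The remaining 3 are the non-coding RNAs Kcnq1ot1 and Kcnd3os and the regulator Kcnrg. The samples are 8 primary tumours, 1 array each, all with the same label and therefore 1 group (n = 8). They grew under the skin of nude or C57Bl/6 mice from neural crest cells, the embryonic precursors of sympathetic neurons, chromaffin cells and glia, that had been transduced with N-Myc. All tumours arose from N-Myc transduced cells, and the injected cells were a mixture of p53+/- and p53-/- cells. Some 10000 cells were given per mouse at 48 hours after infection, and tumours were removed after roughly 50 days. Neither the host strain nor the p53 genotype of a given tumour is in the labels, and nothing there says whether the tumours come from different animals or cultures. The tests below therefore cover the spread between these samples only.

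Voltage-gated sodium channels open on depolarisation and carry the upstroke of the action potential. Calcium channels couple depolarisation to transmitter and hormone release, and potassium channels set the resting potential and end the spike. Each channel is built from pore-forming subunits, encoded by different genes with different gating, and accessory subunits that set trafficking and kinetics, so the set of subunits made by a sympathetic neuroblast shapes its excitability.

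Levels are log2 values, so a difference of 1 is a 2-fold change, and folds below are 2 to the power of the difference. As genes that a neural tumour should not use, 1440 probe sets for olfactory, vomeronasal and bitter taste receptors set the background of each array. Their 95th percentile was taken and lay between 5.45 and 5.66, with array medians between 5.63 and 5.75. A gene was called detected where its level minus background was above 0 over the 8 tumours with a limma adjusted p under 0.05. Levels of different genes come from different probes, so single genes were not compared with each other as amounts of RNA. Gene means were ranked only to choose which members to name. The neuroblastoma label was checked against fixed markers. All 8 measured sympathoadrenal markers and all 9 neuronal markers were detected, as were 8 of 8 macrophage, 8 of 8 smooth muscle and pericyte, 7 of 8 endothelial, 6 of 7 fibroblast, 7 of 10 skeletal muscle, 5 of 7 crest and glia, 3 of 6 heart muscle and 0 of 5 T cell markers. The arrays read whole tumours, in which fewer cells of a type and less RNA per cell cannot be told apart.

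Of the 126 channel genes, 76 (60.3%) were detected, beside 57.3% of all genes tested, so the share is near that of the array as a whole. Detected were 5 of 11 sodium, 18 of 25 calcium and 52 of 87 potassium channel genes. Of the 50 others, 26 (52.0%) were above background on at least 1 array, beside 22.0% of all genes that were not detected. The median excess over background was 1.30 for the detected members and 2.24 for all detected genes, read from different probes. On all 8 arrays, 64 of the 76 (84.2%, against 95% of all detected genes) were above background. The count depends on where background is set. It was 38 with the 99th percentile of the receptor probe sets (41.9% of all genes) and 126 with their median (90.9% of all genes). Among the 67 members named by rule, Cacna1h, Cacng5, Cacng6, Kcna2, Kcna6, Kcnab3, Kcnb2, Kcnc1, Kcnd3, Kcnip4, Kcnj10, Kcnj11, Kcnmb1, Kcnn1, Kcnn2, Kcnn3, Kcnq3 and Kcnv1 were not detected against the 99th percentile. Other members named below were not examined 1 by 1 in this way. Of these, Kcnh3, Kcne3 and Kcna5 lay only 0.57, 0.38 and 0.63 above the 95th percentile. Of the 10 genes with several probe sets, the one not used was above background on no array for Cacnb2, Cacnb4, Kcnab3, Kcnma1 and Kcnq5 and on 3 arrays for Kcna4. For Kcna6 it had an SD of 0.31, against 1.04 for the one used, with the same lowest and highest tumours.

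**Figure D1:**
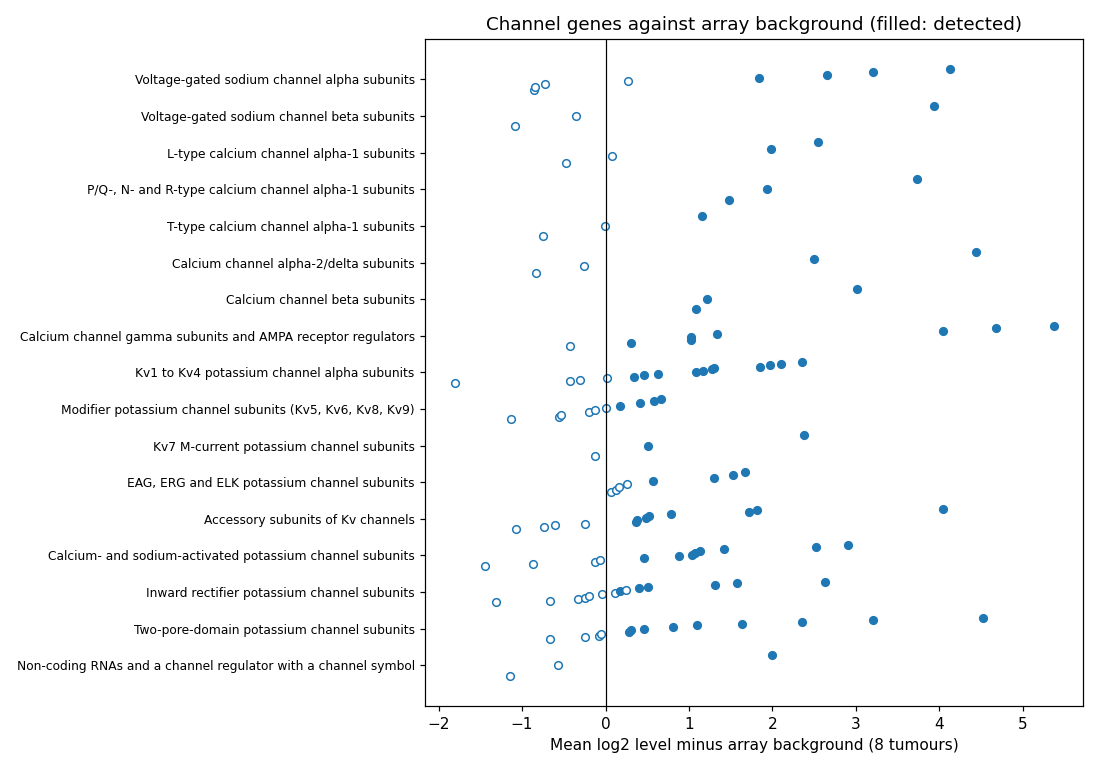
Mean log2 level minus array background over the 8 tumours (horizontal axis) for each of the 126 genes, 1 circle per gene, grouped by role. Filled circles are the 76 detected genes, which reach from 0.17 to 5.37, and open circles the 50 others.

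Among sodium channel pore subunits, 4 of 8 were detected, and these were Scn2a, Scn3a, Scn8a and Scn9a. Scn9a encodes the channel of sympathetic and pain-sensing neurons. Its level was 7.60 at the lowest, 10.14 at the median and 10.53 at the highest over the tumours (9.71 ± 1.01, mean ± SD, n = 8; limma adjusted p = 4.69e-07 against background). Tumour 6 held the lowest value, 2.76-fold under the next, and the other 7 tumours lay at 10.02 ± 0.58 (SD, n = 7). Scn3a, a channel of embryonic neurons, ran from 8.02 in tumour 4 through a median of 8.94 to 9.39 in tumour 2 (8.78 ± 0.48; limma adjusted p = 5.67e-10). Scn2a, a channel of the axon initial segment, ran from 7.24 in tumour 6 through 8.35 to 8.84 in tumour 2 (8.24 ± 0.60; limma adjusted p = 6.19e-08). Scn8a, the main channel of mature nodes of Ranvier, had the smallest spread of the 4, from 6.91 to 7.89 with a median of 7.43 (7.43 ± 0.36; limma adjusted p = 1.57e-08). Tumours 4 and 6 held the lowest pair of values for both Scn2a and Scn3a, and tumour 2 the highest value.

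The pore subunits of sensory neurons, Scn10a (4.74 ± 0.14) and Scn11a (4.73 ± 0.11), and Scn1a (4.87 ± 0.38), a channel of inhibitory neurons, were above background on no array. Scn7a, a sodium-sensing relative found in glia and muscle, was not detected over the 8 tumours (5.86 ± 0.63), although 6 arrays were above background and tumour 7 reached 6.74. It passed the limma detection test when tumour 1 (4.69) was left out (0.45 above background, adjusted p = 0.0133). Of the accessory beta subunits, Scn3b was detected, and Scn2b (5.23 ± 0.46) and Scn4b (4.51 ± 0.12) were not. Scn3b was at 7.97 in tumour 6, with a median of 9.57 and a highest value of 10.32 in tumour 8 (9.52 ± 0.76; limma adjusted p = 3.42e-08). As for Scn9a, tumour 6 stood below all others, which lay at 9.74 ± 0.46 (SD, n = 7). On mouse chromosome 2, in gene order of the GRCm38.p6 assembly, Scn3a and Scn2a are adjacent and both were detected, and Scn1a and Scn7a flank Scn9a. The detected Scn9a thus lies directly between 2 genes that were not called.

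**Figure D2:**
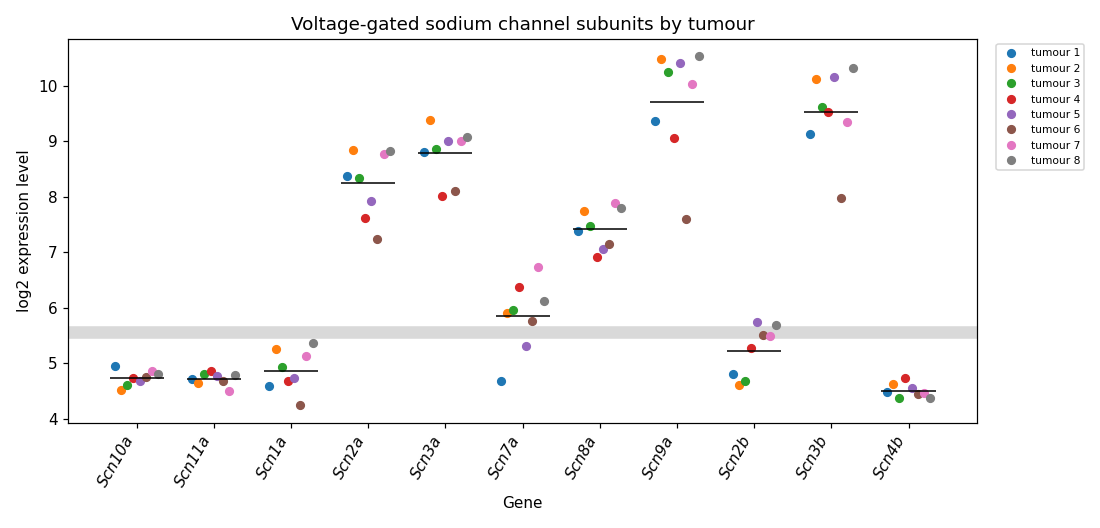
Log2 level (vertical axis) of the 11 sodium channel genes in each of the 8 tumours, 1 coloured point per tumour, with a bar at the mean and the grey band marking array background (5.45 to 5.66). Scn9a and Scn3b are lowest in tumour 6, at 7.60 and 7.97.

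High-voltage-activated calcium channels of neurons were detected in all tumours, with 3 of 3 P/Q-, N- and R-type and 2 of 4 L-type pore subunits called. Cacna1b, the N-type channel that triggers transmitter release from sympathetic terminals, was even across tumours, from 8.87 through 9.34 to 9.75 (9.31 ± 0.32; limma adjusted p = 3.32e-12). Cacna1a, the P/Q-type channel, ran from 6.07 in tumour 5 through 7.04 to 8.31 in tumour 7 (7.07 ± 0.69), a 4.7-fold range. Cacna1e, the R-type channel, spread most, from 6.05 in tumour 6 through 7.52 to 9.24 in tumour 8 (7.52 ± 1.02; limma adjusted p = 0.000259), a 9.1-fold range. The release channels of one class therefore differed in how evenly they were expressed: the N-type gene stayed within 1.8-fold, and the other two did not. Of the L-type genes, Cacna1c ran from 7.55 to 8.48 (8.14 ± 0.31) and Cacna1d, the L-type channel that opens at lower voltages, from 7.02 to 8.56 in tumour 8 (7.57 ± 0.52). Cacna1s, the skeletal muscle pore subunit, was not detected (5.67 ± 0.16), nor was Cacna1f (5.12 ± 0.15). The muscle gamma subunit Cacng1 (5.16 ± 0.13) was above background on no array.

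T-type channels open near the resting potential and drive rebound firing. Cacna1h was the only one of 3 T-type genes detected, from 5.90 in tumour 3 through 6.59 to 8.32 in tumour 6 (6.75 ± 0.74; limma adjusted p = 0.000659). Tumour 6 lay 2.28-fold above the next tumour. Cacna1i (5.57 ± 0.54) and Cacna1g (4.84 ± 0.34) were not detected, and their highest values were also in tumour 6, at 6.65 and 5.56. The direction in tumour 6 is thus opposite for Cacna1h and for Cacna1e.

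Accessory calcium channel subunits were mostly detected. The alpha-2/delta proteins carry the channel to the membrane. Cacna2d1 ran from 9.32 in tumour 1 through 10.09 to 10.56 in tumour 4 (10.02 ± 0.37), and Cacna2d2 from 6.26 in tumour 6 through 8.32 to 8.94 in tumour 8 (8.09 ± 0.84; limma adjusted p = 4.54e-06). Without tumour 6, Cacna2d2 was at 8.35 ± 0.44 (SD, n = 7), 4.23-fold above its level in tumour 6. Cacna2d3 (4.76 ± 0.24) was above background on no array, and Cacna2d4 (5.32 ± 0.23) was not detected. All 3 measured beta subunits, the cytoplasmic partners of the pore, were detected, with Cacnb1 between 8.24 and 8.92 (8.59 ± 0.23). Of the gamma genes, 7 of 8 were detected. Most of these encode regulators of AMPA-type glutamate receptors rather than of calcium channels. Cacng7 ran from 10.59 to 11.30 (10.95 ± 0.26; limma adjusted p = 1.52e-14), Cacng4 from 9.31 in tumour 6 through 10.45 to 10.57 (10.26 ± 0.41), and Cacng3 from 7.90 in tumour 6 through 9.87 to 10.36 in tumour 8 (9.63 ± 0.82). Cacng5 was at 8.37 in tumour 8 and between 6.02 and 6.60 in the other 7, so a single tumour set its SD of 0.75, which was 0.26 without it. Cacng6, a muscle-type gamma subunit, was close to background (5.90 ± 0.14).

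**Figure D3:**
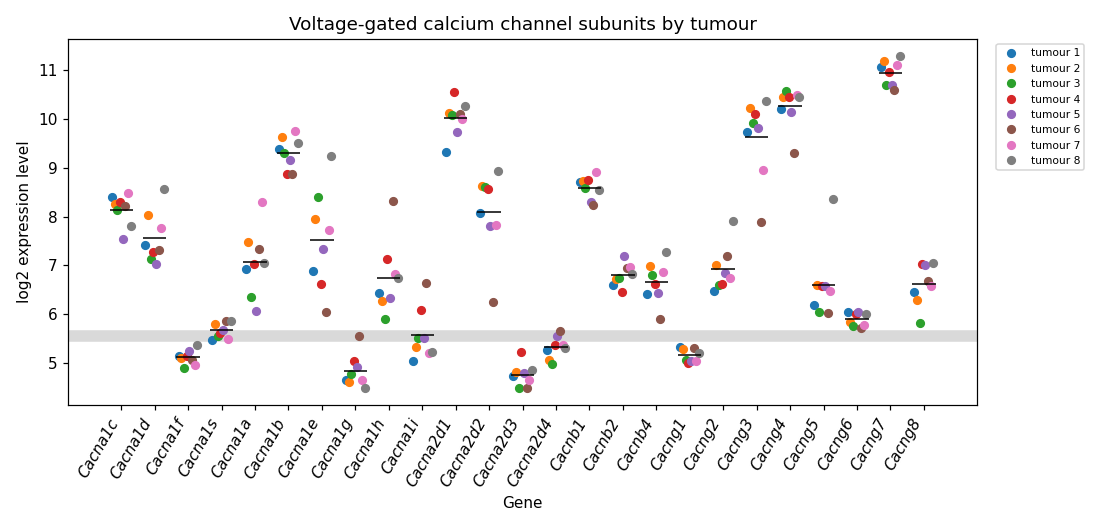
Log2 level (vertical axis) of the 25 calcium channel genes in each of the 8 tumours, 1 coloured point per tumour, with a bar at the mean and the grey band marking array background (5.45 to 5.66). Cacna1h is highest in tumour 6 (8.32), Cacna2d2 lowest there (6.26), and Cacng5 stands apart in tumour 8 (8.37).

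Potassium channel genes were the largest class. Of the Kv1 to Kv4 pore subunits, which repolarise the action potential, 11 of 15 were detected. The Kv4 genes carry the transient A-type current. Kcnd2 had the widest range of all detected members, from 5.69 in tumour 6 through 7.67 to 9.0 in tumour 3 (7.55 ± 1.05; limma adjusted p = 0.000279), a range of 3.32 on the log2 scale. Kcnd3, from the same subfamily, moved the other way in tumour 6, which held its highest value (7.62), with a median of 6.87 and a lowest value of 6.10 in tumour 1. Kcnd1 had the smallest SD of the detected members (6.76 ± 0.07). Kcna6, a delayed rectifier, ran from 5.08, below background, in tumour 3 through 6.64 to 8.01 in tumour 4, with 7.84 in tumour 6 (6.68 ± 1.04; limma adjusted p = 0.00796). Kcna2, an axonal subunit, was also highest in tumour 4 (7.26) and lowest in tumour 3 (5.19; 6.04 ± 0.63), and its limma detection call (adjusted p = 0.036) was lost without tumour 2, 4, 6 or 7 (adjusted p = 0.0721, 0.0536, 0.0877 and 0.0724). Kcnb2, a slow delayed rectifier, was lowest in tumour 6 (5.83; 6.89 ± 0.54), and Kcnc4 was highest in tumour 5 (8.22; 7.43 ± 0.44). Kcna3 (7.69 ± 0.27) and Kcna4 (7.93 ± 0.28) stayed within 1.8-fold over the tumours, and Kcnc1 was close to background (5.92 ± 0.31). Kcna1, which lies between Kcna5 and Kcna6 in gene order on chromosome 6, was not detected (5.61 ± 0.27), while both neighbours were.

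Kv7 subunits form the M-current, which muscarinic receptors close to raise the excitability of sympathetic neurons. Kcnq5 was even across tumours, from 7.74 to 8.13 (7.97 ± 0.15; limma adjusted p = 1.55e-11). Kcnq3 was close to background in most tumours and highest in tumour 8 (7.35), with a lowest value of 5.47 in tumour 6 (6.10 ± 0.57). Kcnq1 was not detected (5.46 ± 0.33). Of the EAG, ERG and ELK family, 4 of 8 genes were detected. Kcnh2, the ERG channel, ran from 6.65 to 7.60 (7.11 ± 0.29; limma adjusted p = 1.29e-08). Kcnh4 was highest in tumour 3 (8.20; 7.25 ± 0.53). Kcnh1 (5.64 ± 0.26) was not detected. Kcnh6 (5.72 ± 0.13) was not detected over the 8 tumours, and passed when tumour 2 (5.40) was left out (0.18 above background, limma adjusted p = 0.00719).

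Modifier subunits, which form no channel of their own and change the gating of Kv2 channels, were near background, with 4 of 10 detected, among them Kcnv1 (6.26 ± 0.35). Of the accessory Kv subunits, 8 of 12 were detected. Kcnip1, a calcium sensor that binds Kv4 channels, ran from 8.75 in tumour 5 through 9.71 to 10.11 in tumour 8 (9.63 ± 0.42; limma adjusted p = 3.49e-11). Kcnip3, also known as the transcriptional repressor DREAM, was highest in tumours 4 (8.45) and 5 (8.24) and lowest in tumour 1 (6.45; 7.31 ± 0.74). Kcnip4 was near background (6.07 ± 0.48) with its highest value in tumour 5 (6.87). Kcnab3, a cytoplasmic beta subunit, ran from 5.41 to 6.83 (6.10 ± 0.57). Its detection call (limma adjusted p = 0.0229) was lost without tumour 3, 5, 6 or 7 (adjusted p = 0.0597, 0.0525, 0.0604 and 0.0588) and when its 2 probe sets were averaged (-0.15 from background).

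Calcium- and sodium-activated channels couple calcium entry to the afterhyperpolarisation, and 8 of 12 were detected. The pore of the large-conductance channel, Kcnma1, ran from 7.88 in tumour 4 through 8.52 to 8.88 (8.50 ± 0.30; limma adjusted p = 4.82e-11). Its accessory subunit Kcnmb2, which makes the channel inactivate and is known from chromaffin cells, was less even: 6.71 in tumour 8 and 7.02 in tumour 3, and between 7.84 and 9.02 in the other 6, with the highest value in tumour 6 (8.11 ± 0.86; limma adjusted p = 4.09e-06). Kcnmb4, the neuronal accessory subunit, was at 7.01 ± 0.28, and Kcnmb1, the smooth muscle one, at 6.46 ± 0.27. The pore subunit thus varied 2.0-fold and its inactivating partner 4.9-fold. All 3 neuronal SK genes were detected, namely Kcnn1 (6.65 ± 0.41), Kcnn3 (6.62 ± 0.56) and Kcnn2 (6.04 ± 0.41). Kcnn4, the relative found in blood cells, was not (5.52 ± 0.20).

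Inward rectifiers hold the resting potential, and 6 of 14 were detected. Kcnj3, a subunit of the channel opened by G proteins, ran from 7.87 to 8.39 (8.21 ± 0.17; limma adjusted p = 9.53e-12). Its usual partner Kcnj6 was not detected, with a median of 5.65 and its highest value in tumour 6 (6.72). Kcnj10, the potassium-buffering channel of glia, was at 8.95 in tumour 4 and between 6.16 and 7.45 in the other 7, with a median of 7.18 (7.16 ± 0.87; limma adjusted p = 0.000185). Tumour 4 lay 2.82-fold above the next. Kcnj11, the pore of the ATP-sensitive channel, was close to background (5.98 ± 0.22). Kcnj8, its counterpart in pericytes, was not detected (5.84 ± 0.45, highest in tumour 4 at 6.77), and passed without tumour 7 (0.33 above background, limma adjusted p = 0.0291).

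Tandem-pore-domain channels carry background potassium leak, and 9 of 13 were detected. Kcnk9, an acid-sensitive leak channel, ran from 8.74 in tumour 6 through 10.16 to 10.89 in tumour 8 (10.10 ± 0.69; limma adjusted p = 4.45e-09). The other 7 tumours lay at 10.30 ± 0.45 (SD, n = 7). Kcnk10, a stretch- and lipid-sensitive channel, ran from 8.43 to 9.19 (8.78 ± 0.28), and its relative Kcnk2 from 6.41 in tumour 6 to 7.73 (7.22 ± 0.43). Kcnk1 was at 7.94 ± 0.28. Kcnk3 has a symbol that fits the rule, but it was measured only by probe sets shared with another gene and so had no value here. The antisense RNA Kcnq1ot1, which silences imprinted neighbours of Kcnq1, was detected (7.58 ± 0.61), from 6.72 in tumour 4 to 8.58 in tumour 7, whereas Kcnq1 itself was not.

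Channel genes differed between tumours more often than detected genes in general. An SD over the tumours above 0.41, the 99th percentile of 1429 receptor genes, was found for 35 of the 76 detected members (46.1%), beside 14.6% of all detected genes. Such spread was not particular to channel genes. Among detected markers it was found for 6 of 8 sympathoadrenal, 5 of 5 crest and glia and 6 of 8 macrophage genes. The counts were 6 of 6 for fibroblast and 6 of 7 for skeletal muscle genes. They were 3 of 9 for neuronal, 3 of 7 for endothelial, 2 of 8 for smooth muscle and pericyte and 0 of 3 for heart muscle genes. The median SD was 0.39 for detected members and 0.23 for all detected genes. An SD of at least 0.5 was found for 24 members (31.6%, against 9.38% of all) and of at least 1 for 4 (5.26%, against 1.23%), namely Kcnd2, Kcna6, Cacna1e and Scn9a. The highest tumour was at least 2-fold above the lowest for 43 members (56.6%, against 23.1%) and at least 4-fold for 15 (19.7%, against 4.48%). By class, 4 of 5 detected sodium, 11 of 18 calcium and 19 of 52 potassium channel genes varied in this sense, with a median SD of 0.60, 0.42 and 0.34. None of the 4 detected modifier subunits did. Just above the SD threshold lay Cacng4 and Kcnh3, and just below it Kcnn1 and Kcnn2. A limma-based variance test set each gene's variance beside that fitted by limma for genes at a like level. It called 0 of the 76 members and 0 of all 12715 detected genes (0%, lowest adjusted p = 0.522). Its reference was fitted to the spread of these same genes between tumours, and its power on these data was not measured. Even the marker Dbh, with a 52.3-fold range, was not called (limma-based variance test, adjusted p = 0.522). The count of 0 therefore does not show that the genes were even. At an unadjusted p under 0.05 the test named 19 members (25%) and 6.94% of all. With 1 array per tumour, technical noise cannot be told apart from a difference between tumours.

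The call of 35 varying members was 22 when the median absolute deviation, which a single tumour cannot set, replaced the SD (10.2% of all detected genes). Without tumour 6 it was 27 (11.7% of all detected genes), and without tumour 5 or tumour 8 it was 29 (13.7% and 13.4%). With each tumour left out in turn, the SD threshold was computed anew from the receptor genes and lay between 0.40 and 0.43. The members still detected and above it in every case were 16 of the 35, namely Scn9a, Scn3b, Scn2a, Cacna1a, Cacna1e, Cacna2d2, Cacng3, Kcnd2, Kcnd3, Kcna6, Kcnip3, Kcnj10, Kcnk9, Kcnmb2, Kcnn3 and Kcnq1ot1. For Kcna2 and Kcnab3 the SD stayed above it and only the detection call was lost, as given above. The SD of the other 17 was under the new threshold without at least 1 tumour. Among the named ones these were Cacna1h, Cacng4 and Kcnb2 without tumour 6 (SD of 0.41, 0.16 and 0.36), Cacna1d, Cacng5 and Kcnq3 without tumour 8 (0.36, 0.26 and 0.28), and Scn3a without tumour 4 (0.39). Kcnc4 and Kcnip4 did so without tumour 5 (0.33 and 0.39), Kcnh4 without tumour 3 (0.40), Kcnip1 without tumour 5 or 8 (0.24 and 0.40), and Kcnk2 without tumour 2, 5 or 6 (0.41, 0.42 and 0.30).

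**Figure D4:**
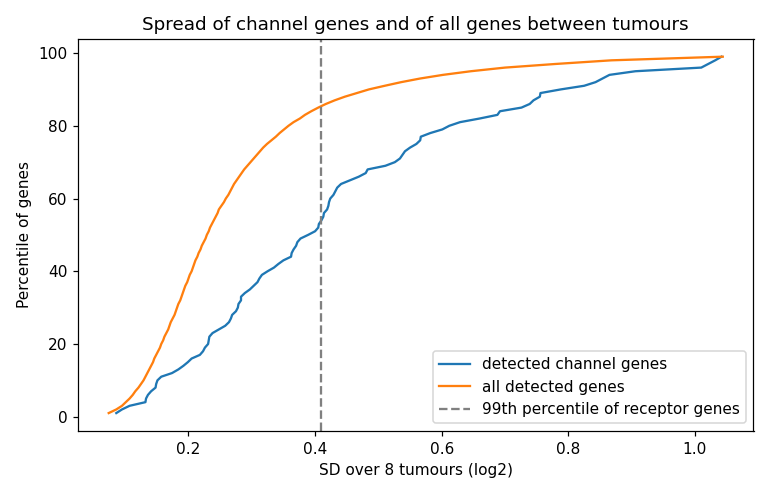
Percentile of genes (vertical axis) against the SD over the 8 tumours on the log2 scale (horizontal axis) for the 76 detected channel genes and for all detected genes, with the 99th percentile of receptor genes (0.41) dashed. The channel genes lie to the right, with a median SD of 0.39 against 0.23.

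Tumour 6 held the lowest value for 22 of the 76 detected members (28.9%), beside 16.0% of all detected genes. It held the lowest for 15 of the 35 varying members (42.9%), beside 22.3% of all varying genes, and the highest for 4 (11.4%, against 21.0%). The members furthest down in tumour 6 were Scn9a, 5.34-fold under the mean of the other 7 tumours, Kcnd2 (4.38-fold), Cacna2d2 (4.23-fold), Cacng3 (3.93-fold), Scn3b (3.43-fold), Cacna1e (3.21-fold) and Kcnk9 (2.94-fold). Higher in tumour 6 than the mean of the others were Cacna1h (3.49-fold), Kcna6 (2.51-fold), Kcnmb2 (2.05-fold), Kcnh3 (2.01-fold) and Kcnd3 (1.82-fold). The sodium channel genes lowest in tumour 6 were Scn9a, Scn2a and Scn3b, whereas Scn3a and Scn8a were lowest in tumour 4. Sympathoadrenal markers had their lowest list mean in tumour 6 (8.32, against 9.69 to 10.77 in the others), and so did neuronal markers (10.39, against 10.97 to 11.47). Crest and glia markers had a mean of 7.80 in tumour 6, of 8.58 in tumour 4, and of 5.59 to 6.55 elsewhere. Skeletal muscle markers had their highest mean there (8.14, against 5.97 to 7.22), with Mylpf, Myh4 and Myod1 not detected over the tumours, although Myh4, a fast muscle myosin, reached 8.96 in tumour 6. The part of these cells in the channel differences was not tested.

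Tumour 8 held the highest value for 14 of the 35 varying members (40.0%), beside 19.8% of all varying genes. Cacna1e, Cacna1d, Cacng5 and Kcnq3 stood out there, with Cacng5 3.43-fold and Kcnq3 1.92-fold above the next tumour. Others of the 14 were near-ties, such as Kcnk9 (1.01-fold above the next), Cacng8 (1.02-fold), Kcnb2 (1.03-fold) and Scn9a (1.04-fold). Neuronal markers also had their highest mean in tumour 8 (11.47). In tumour 4 the highest values were those of Kcna6, Kcna2, Kcnip3, Kcnj10 and Kcne3, 5 of the 35 (14.3%, against 17.8% of all varying genes). Crest and glia markers were highest in tumour 4 (8.58), as were endothelial markers (7.81, against 6.51 to 7.46), and their part in these values was not tested. In tumour 6, with the next highest crest and glia mean (7.80), Kcna6 was at 7.84, Kcna2 at 6.43 and Kcnip3 at 7.55. Kcnj10 was at 7.01 there and Kcne3 at 5.41. Among the members not called, Kcnj2 reached 6.73 in tumour 4 and Kcnab1 6.52 in tumour 6, both chosen after their values were seen.

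**Figure D5:**
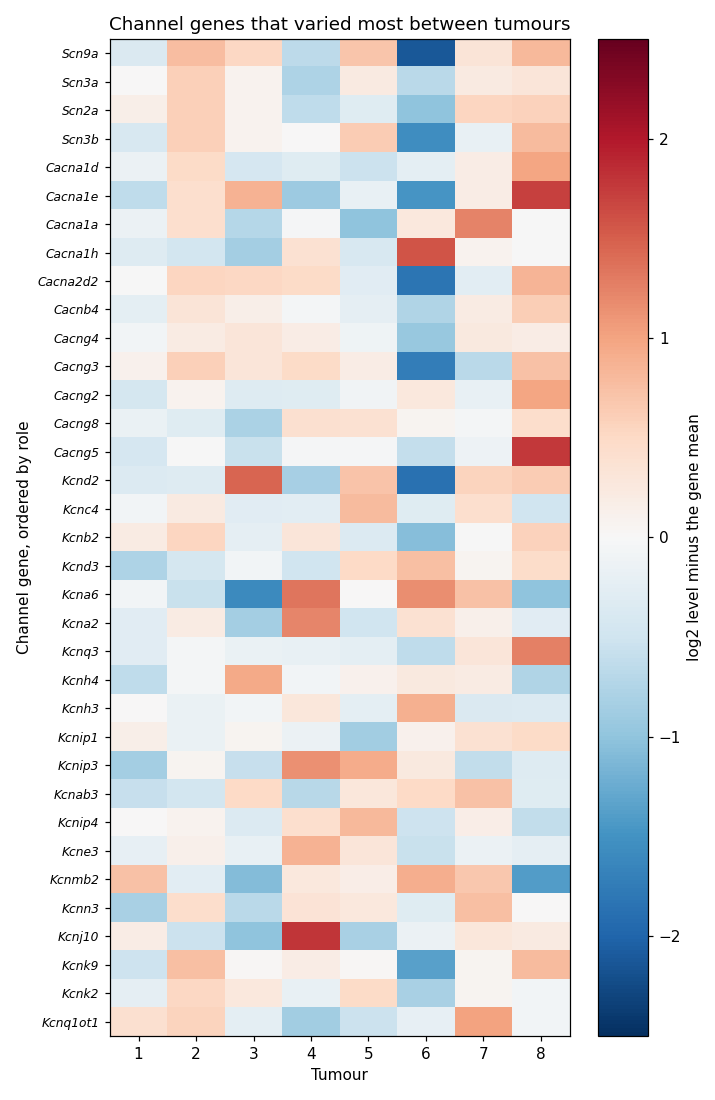
Log2 level minus the gene's own mean (colour) of the 35 detected channel genes with an SD above 0.41, ordered by role, in the 8 tumours (columns). Red is above the mean and blue below. Tumour 6 is lowest for 15 of the 35 and tumour 8 highest for 14, some of these by narrow margins.

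The promoter windows of the 3 members with the widest ranges among those lowest in tumour 6 and with 1 window in RefSeq, build GRCm38.p6, are shown because these genes were low together. Each window runs from 250 bases before to 50 bases after the start, and capitals mark the motif GCCNNNGGC of AP-2 factors. The AP-2 gene Tfap2b, a regulator of sympathetic neuron development, was at 4.88 in tumour 6 and between 10.39 and 11.63 in the other 7. Tfap2b was in none of the fixed gene lists, and its part in the levels of these channel genes was not tested. The E-box CACGTG, which N-Myc with its partner Max can bind, was also searched, and both motifs read the same on either strand. The windows are chr6:21215096-21215395 on the plus strand for Kcnd2, chr1:154725871-154726170 on the minus strand for Cacna1e and chr2:66634913-66635212 on the minus strand for Scn9a.
Kcnd2: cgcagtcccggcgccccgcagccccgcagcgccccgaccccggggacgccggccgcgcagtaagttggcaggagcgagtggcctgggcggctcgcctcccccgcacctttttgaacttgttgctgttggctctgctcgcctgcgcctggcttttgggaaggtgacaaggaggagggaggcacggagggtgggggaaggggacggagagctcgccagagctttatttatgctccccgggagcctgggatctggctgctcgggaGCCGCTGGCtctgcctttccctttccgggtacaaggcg
Cacna1e: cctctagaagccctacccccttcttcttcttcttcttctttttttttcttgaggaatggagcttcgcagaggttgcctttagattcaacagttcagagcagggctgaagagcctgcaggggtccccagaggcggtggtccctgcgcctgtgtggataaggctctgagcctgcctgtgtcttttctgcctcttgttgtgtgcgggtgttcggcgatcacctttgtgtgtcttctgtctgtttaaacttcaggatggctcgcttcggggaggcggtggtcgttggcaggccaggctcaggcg
Scn9a: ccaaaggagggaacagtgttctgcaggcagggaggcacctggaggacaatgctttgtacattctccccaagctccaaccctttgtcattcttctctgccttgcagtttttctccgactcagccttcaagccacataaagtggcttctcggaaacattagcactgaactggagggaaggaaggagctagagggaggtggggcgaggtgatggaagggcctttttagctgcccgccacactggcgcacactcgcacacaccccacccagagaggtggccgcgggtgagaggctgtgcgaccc
The Kcnd2 window held 1 match to GCCNNNGGC, and the letters of neither motif were found in the Cacna1e and Scn9a windows. Over the 98 members with a window, 26 of 133 windows (19.5%) held GCCNNNGGC, beside 16.6% of all 32851 windows, and 7 (5.26%) held CACGTG, beside 7.15%. For the varying members the shares were 15.4% and 2.56% of 39 windows. A match is a description of the letters and shows no binding.

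Partners of these channels outside the naming rule were detected for 22 of 29 measured genes, beside 57.3% of all genes. Of these 22, 11 had an SD above 0.41, beside 14.6% of all detected genes. The intracellular sodium channel modulator Fgf14 ran from 6.71 in tumour 6 to 9.66 in tumour 8 (8.14 ± 0.93), so its lowest and highest tumours were those of Scn9a and Scn3b. For Scn9a and Scn3b, tumour 8 lay only 1.04-fold and 1.11-fold above the next. The axonal scaffold genes Ank2 (10.68 ± 0.28) and Ank3 (10.33 ± 0.32), which anchor sodium channels, were even across tumours. Dpp6, a partner of Kv4 channels, was at 7.60 ± 0.54, and Dpp10 (3.65 ± 0.14) was not detected. Gem, a small G protein that lowers calcium current, ran from 6.49 in tumour 6 to 8.75 in tumour 8. Of the 11 partners above the SD threshold, Fgf14, Nrcam, Gem and Akap5 were lowest in tumour 6. The others were lowest in tumour 1 (Dpp6, Abcc9 and Lgi1), tumour 2 (Rem2) or tumour 5 (Nfasc, Abcc8 and Cntnap2). The sulphonylurea receptors Abcc8 (7.49 ± 0.45) and Abcc9 (6.95 ± 0.50) were detected. Stac3, which traffics the muscle calcium channel, was not (5.54 ± 0.27). Among related cation channels, 15 of 24 were detected, beside 57.3% of all genes. Of these 15, 5 had an SD above 0.41, beside 14.6% of all detected genes. The sodium leak channel Nalcn ran from 8.26 in tumour 6 to 9.84 in tumour 8 (9.13 ± 0.54), and its partners Unc79 (9.04 ± 0.32) and Unc80 (8.46 ± 0.38) were detected. Of the other genes among these 5, Asic4 was lowest in tumour 6 and Asic2 in tumour 5. Hcn4 (7.55) and Piezo1 (8.63) were instead highest in tumour 6. The pacemaker genes Hcn2 (7.69 ± 0.30), Hcn3 (8.17 ± 0.22) and Hcn4 (6.96 ± 0.43) were detected. Trpc5, a receptor-operated cation channel, was not detected over the tumours but ran from 4.60 in tumour 4 to 9.60 in tumour 7, with 4 arrays above background and the value in tumour 4 below it.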

How the data were processed

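Total RNA of 8 tumours was extracted with Trizol, biotin-labelled and hybridised to Affymetrix arrays, 1 per tumour. The deposited values are log2 levels per probe set. The submitters' processing notes name RMA and Partek 6.5 without a role for either, and no genome build or further setting is stated. That they are log2 values follows from their range of 2.07 to 13.61. Arrays carry no counts, and their number limits the precision.

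Of 41345 probe sets, 23521 carry 1 symbol, 1814 several and 16010 are unnamed here. The 126 members had 136 probe sets, 10 members had several, and 5 probe sets shared with other genes were not used. Cross-hybridisation between paralogous channel genes was not tested. Of 60 subunits fixed by name, 53 had a value.

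Detection and variance were fitted over all 22180 genes with limma 3.58.1 in R 4.3.3 (trend and robust prior, Benjamini-Hochberg adjustment), and the script was tested on simulated data. For the variance test the simulated SDs were homogeneous, so its power on these data was not measured. The variance test was an F ratio, formed outside limma, of each gene's variance to limma's prior variance. It used 7 residual degrees of freedom and the common prior degrees of freedom of the robust fit. Its p-values were adjusted over the detected genes, or over all genes without that filter. The named members are the 12 with the highest mean, the 25 detected ones with the largest SD, the highest detected one of each role, and the fixed subunits. Any other was chosen after its values were seen. Members and lists were chosen with earlier results of these data known. Alternatives were other probe set summaries, normalizations, backgrounds and filters, and leaving out each tumour. Python 3.11.15, numpy 2.4.6, pandas 2.3.3 and matplotlib 3.10.9 were used.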

Additional observations from a re-analysis of the deposited data

Results flagged for a closer look

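In 6 of the 67 named channel genes, 1 of the 8 tumours stood apart from the others, with a gap to its nearest neighbour so large, relative to the whole range, that it passed Dixon's 95% critical value. Chance alone gives such a gap in about 1 in 20 groups. Among detected genes, 4 of 76 members (5.26%) and 6.95% of all had one. Tumour 6 stood low for Cacna2d2 (6.26) and Cacng4 (9.31) and high for Kcnj6 (6.72), a G protein-gated inward rectifier not detected over the tumours. Tumour 8 stood high for Cacng5 (8.37) and tumour 4 for the glial channel Kcnj10 (8.95). Tumour 2 stood low for Kcnh6 (5.40), an ERG-type gene near background.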

How the results depend on the processing

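The count of 76 detected channel genes moved to 38 with background at the 99th percentile of receptor probe sets and to 126 with their median. It was 75 with the mean of all probe sets, 76 after quantile normalization or median centring, and 73 to 77 without each tumour in turn. The count of 35 varying members was 22 by the median absolute deviation, 44 without the filter on detection (11.4% of all genes), 32 to 36 under the other probe set summary and normalizations (14.1% to 15.8%), and 27 to 39 without each tumour (11.7% to 15.4%). No member passed the limma-based variance test with another probe set summary, normalization or filter or without any 1 tumour (19 did at an unadjusted p under 0.05 in the setting reported). The power of that test was not measured in these settings either, so these results do not show that the members were even. The count of 22 detected members lowest in tumour 6 was 15 of the 38 detected against the 99th percentile, 23 of the 126 against the median, 21 to 22 under the other probe set summary and normalizations, and 22 to 25 when another tumour was left out. Against the median background, the levels of Cacna1g, Cacna2d3, Cacng1, Scn10a, Scn11a, Scn2b and Scn4b turned from below to above it (1.37, 1.29, 1.70, 1.28, 1.26, 1.77 and 1.04). Against the 99th percentile, Cacng6, Kcna2, Kcnab3, Kcnc1, Kcnip4, Kcnj11, Kcnmb1, Kcnn2, Kcnq3 and Kcnv1 turned below it (-0.69, -0.55, -0.49, -0.67, -0.52, -0.61, -0.13, -0.55, -0.49 and -0.33), as did Kcnab3 with the mean of its probe sets (-0.15). Only the 67 members named by rule were examined for such turns, which follow from the construction of each background. No paired analysis was possible because the labels give 1 group.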
